A study of Mus musculus with 6 samples.

Results

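Type 1 conventional dendritic cells (cDC1) of the NASH liver were followed here with and without ginkgetin. They were picked from single-cell counts of liver non-parenchymal cells (LNPCs) as cells with at least 2 UMIs (unique molecular identifiers, each a counted transcript) of Xcr1 plus Clec9a, at most 1 UMI of Siglech and at most 1 UMI of Cd79a plus Cd3e, after cells with 5000 or more genes or with 5% or more mitochondrial UMIs had been removed. This gate held 558 cells, 2.03% of the 27544 kept cells of the 33168 barcodes deposited. The 332 cells of vehicle-treated mice came from 143, 61 and 128 cells in replicates 1 to 3, and the 226 cells of ginkgetin-treated mice from 59, 89 and 78.

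All libraries came from male C57BL/6J mice, bought at 8 weeks of age, in which NASH was induced with a high-fat diet given for 24 weeks. The vehicle group (labelled Control) received DMSO and the other group ginkgetin, a biflavone of Ginkgo biloba leaves, at 10 mg/kg a day by the intragastric route during the last 8 weeks. Each group had 3 libraries made with the 10x Genomics Chromium system, although the extraction text of the labels names a SMARTER mRNA-Seq kit. No library of mice on chow was used here, so every comparison was made within the diet. The labels name replicates without saying whether each was 1 animal, so p-values measure only the spread between these libraries, which may be technical.

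Dendritic cells take up material from tissue and present it to T cells. The cDC1 lineage, which depends on the transcription factors Irf8 and Batf3, is known for cross-presenting antigens of dead cells on MHC class I to CD8 T cells. Clec9a recognizes dead cells. Xcr1 helps to bring CD8 T cells near, since its ligand Xcl1 is made by NK and CD8 T cells. In fatty liver disease these cells share the sinusoids with resident Kupffer cells, monocyte-derived macrophages, cDC2 and plasmacytoid dendritic cells (pDC).

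Total counts ranged from 13128697 to 61796882 UMIs per library, and the cDC1 of a library together held 791918 to 2303525 UMIs. The median cDC1 had 13719, 12127 and 18168.5 UMIs in vehicle replicates 1 to 3 and 12146, 10948 and 16982.5 UMIs in ginkgetin replicates 1 to 3. Replicate 3 of both groups was the deepest and stood apart: 2253 gene symbols were counted only there and 946 only in replicates 1 and 2. Ribosomal protein genes took 26.6%, 32.2% and 22.7% of the cDC1 UMIs in the vehicle libraries and 39.7%, 38.3% and 22.7% in the ginkgetin libraries. No cDC1 barcode was shared between libraries.

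The gate found cells with the program of cDC1. Both gate genes were counted in 389 of the 558 cells, Clec9a alone in 125 and Xcr1 alone in 44. This composition differed between the groups. Clec9a alone made up 27.7% of the vehicle and 14.6% of the ginkgetin cells, Xcr1 alone 6.33% and 10.2%, and both 66.0% and 75.2%. Of 8 cDC1 markers that the gate did not use (Irf8, Naaa, Batf3, Wdfy4, Cadm1, Itgae, Tlr3 and Ifi205), 4 or more were counted in 474 cells, or 84.9%. That share was 83.9%, 86.9% and 82.8% in the vehicle libraries and 94.9%, 91.0% and 74.4% in the ginkgetin libraries. It climbed with the UMIs of the gate genes. Just outside the threshold, 22.7% of 880 cells with 1 UMI held 4 or more of these markers, and just inside it 41.6% of 125 cells with 2 UMIs did, against 99.5% of 387 cells with 4 or more. The other markers were therefore sparse in the cells at the edge of the gate. Those with 2 UMIs numbered 36, 12 and 42 in the vehicle libraries and 4, 12 and 19 in the ginkgetin libraries. Gene calls with stricter gates are given below. Few gated cells carried the marker of another dendritic lineage, as 14 had 2 or more UMIs of the cDC2 gene Cd209a.

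**Figure D1:**
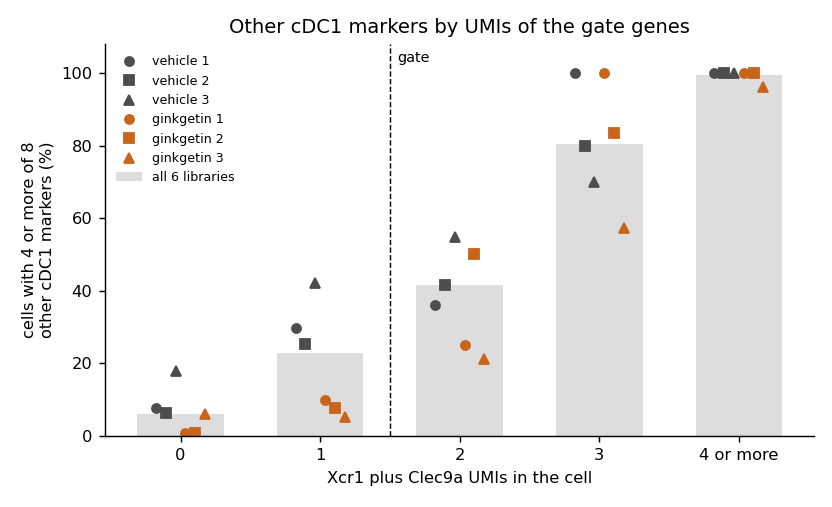
Share of cells (y axis, percent) with 4 or more of 8 cDC1 markers not used by the gate, by the number of Xcr1 plus Clec9a UMIs in the cell (x axis), with bars for all 6 libraries and points for each library. The bars go from 6.10% without a gate UMI to 99.5% with 4 or more, and the dashed line is the gate.

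The leading genes of the gated cells included genes known for this lineage. They were chosen from the same cells as the gate, so their levels are a description with no test. Naaa, a lysosomal amidase that marks cDC1, was at a mean of 891 CPM, 26.0 times its level in all other kept cells. CPM is a gene's UMIs scaled to the total of the summed cells, here averaged over 6 libraries. In this and the next ratios 1 CPM was added to the level of the other cells and not to that of cDC1. Flt3, the receptor for the growth factor of dendritic cells, was 15.3 times higher, and Ifi205 and Wdfy4, the latter required for cross-presentation, were 15.2 and 13.8 times higher. Tlr3, a sensor of double-stranded RNA, was 9.48 times higher and Batf3 5.22 times. Against cDC2 alone the ratios were 7.75 for Naaa and 20.3 for Tlr3, but 1.37 for Flt3 and 1.63 for Batf3. Irf8 was 6.79 times higher than in the other cells, but its level was lower than in pDC, in which it stood at 2890 CPM. The gate genes themselves were at 354, 347 and 246 CPM (Xcr1) and 217, 202 and 174 CPM (Clec9a) in the vehicle libraries, and at 408, 391 and 490 CPM and 230, 202 and 263 CPM in the ginkgetin libraries.

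The cDC1 share of all kept cells overlapped between the groups, whereas cDC1 made up more of the conventional dendritic cells in every ginkgetin library than in any vehicle library. The share of kept cells was 2.38%, 1.83% and 3.09% in the vehicle libraries and 1.69%, 1.29% and 2.14% in the ginkgetin libraries. Its Wilson 95% intervals, which cover counting error only, ran from 1.05–1.58% (ginkgetin replicate 2) to 2.61–3.67% (vehicle replicate 3). The groups overlapped at 2.43% ± 0.635 against 1.71% ± 0.428 (SD, n = 3), with a two-sided exact permutation p of 0.2. The share was lower with ginkgetin within each replicate number (paired exact permutation p of 0.25, the smallest possible). After cells were thinned to 1000 UMIs to set an equal depth, which left out 23 shallower cells of vehicle replicate 3 and 112 of ginkgetin replicate 3, the shares were 1.61%, 1.41% and 1.60% against 1.32%, 1.46% and 1.61%.

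cDC2, gated as cells with 2 or more Cd209a UMIs, numbered 462. As a share of cDC1 plus cDC2, cDC1 were 46.9%, 54.0% and 54.5% in the vehicle libraries and 60.8%, 57.4% and 67.8% in the ginkgetin libraries. The means were 51.8% ± 4.24 and 62.0% ± 5.31 (SD, n = 3), a difference of 10.2 percentage points whose two-sided exact permutation p of 0.1 was the smallest that 3 against 3 libraries allow (0.25 with libraries paired by number, also the smallest possible, and 0.4 adjusted over the 4 shares tested). With cells holding genes of other cell types left out, ginkgetin replicate 2 kept 3 cDC1 and 9 cDC2 and stood at 25%, below every vehicle library (39.0% to 49.2%), and the difference was 4.20 percentage points. At a gate of 1 UMI the difference was 6.09 percentage points and the groups overlapped, at 69.4%, 75% and 75.3% against 72.3%, 79.6% and 86.1%. At 2 UMIs the groups kept apart after thinning, at 46.9%, 52.2% and 50% against 59.7%, 60.5% and 63.3%. Beside this, cDC2 were 2.69%, 1.56% and 2.59% of kept cells in the vehicle libraries and 1.09%, 0.954% and 1.02% in the ginkgetin libraries. Shares are relative, so fewer cDC2 and more cDC1 cannot be told apart in this ratio.

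**Figure D2:**
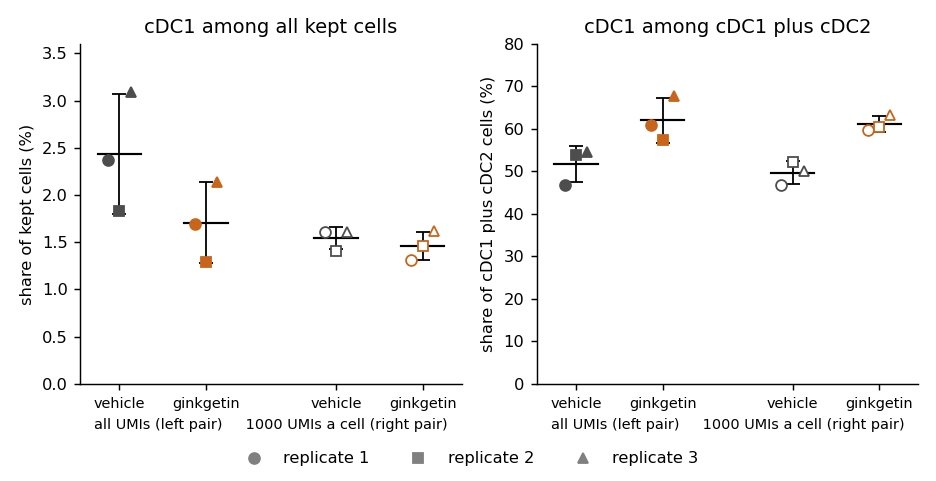
Share of cDC1 (y axes, percent) among all kept cells (left) and among cDC1 plus cDC2 (right), with filled points for all UMIs and open points for cells thinned to 1000 UMIs, a point per library and bars for mean and SD (n = 3). Among kept cells the groups overlap, and among conventional dendritic cells the ginkgetin libraries (57.4% to 67.8%) lie above the vehicle libraries (46.9% to 54.5%).

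The shares of cycling and of migratory cells among cDC1 overlapped between the groups. Cells with UMIs of cell-cycle genes, counted at 1000 UMIs a cell, were 9.79%, 4.92% and 10.2% of vehicle cDC1 and 16.9%, 12.4% and 6.41% of ginkgetin cDC1 (two-sided exact permutation p of 0.4), with 0.596% to 1.73% of endothelial cells, which seldom divide, counted in the same way. The direction differed between the replicates. The mean difference was 7.30 percentage points over replicates 1 and 2 and −3.75 in replicate 3. Without thinning the shares were 29.4%, 19.7% and 34.4% against 28.8%, 31.5% and 24.4%. Ccr7, the receptor that guides mature dendritic cells to lymph nodes, was counted in 0%, 1.64% and 2.34% of thinned vehicle cDC1 and in 0%, 2.25% and 3.85% of thinned ginkgetin cDC1 (two-sided exact permutation p of 0.8), against 0% to 0.757% of endothelial cells.

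RNA of other liver cells was counted in the gated cells, and its amount differed between the groups. C1qa, C1qb and C1qc, complement genes that mark Kupffer cells and other macrophages, together reached 5 or more UMIs in 36, 12 and 30 of the gated vehicle cells (25.2%, 19.7% and 23.4%). In the ginkgetin libraries they did so in 1, 3 and 3 cells (1.69%, 3.37% and 3.85%). Every vehicle library was thus above every ginkgetin library. The summed level of 8 Kupffer cell genes in cDC1 was 4288, 2581 and 5233 CPM in the vehicle libraries and 94.1, 230 and 530 CPM in the ginkgetin libraries, and in all other kept cells it was 8466, 8317 and 10831 CPM against 786, 753 and 2330 CPM. A list of 8 monocyte and macrophage genes was at 9677, 7912 and 16752 CPM in vehicle cDC1 and 543, 958 and 1418 CPM in ginkgetin cDC1. Endothelial genes lay the other way, at 161, 235 and 519 CPM against 455, 1588 and 2032 CPM in cDC1 and at 1122 to 1250 CPM against 5540 to 8907 CPM in the other cells. In ginkgetin replicate 2, 86 of the 89 gated cells held 2 or more UMIs over 10 genes of other cell types, against 30.5% to 50.8% of the cells in the other libraries. Most of these were of Ptprb, an endothelial phosphatase, counted in 84 of the 89 cells there.

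**Figure D3:**
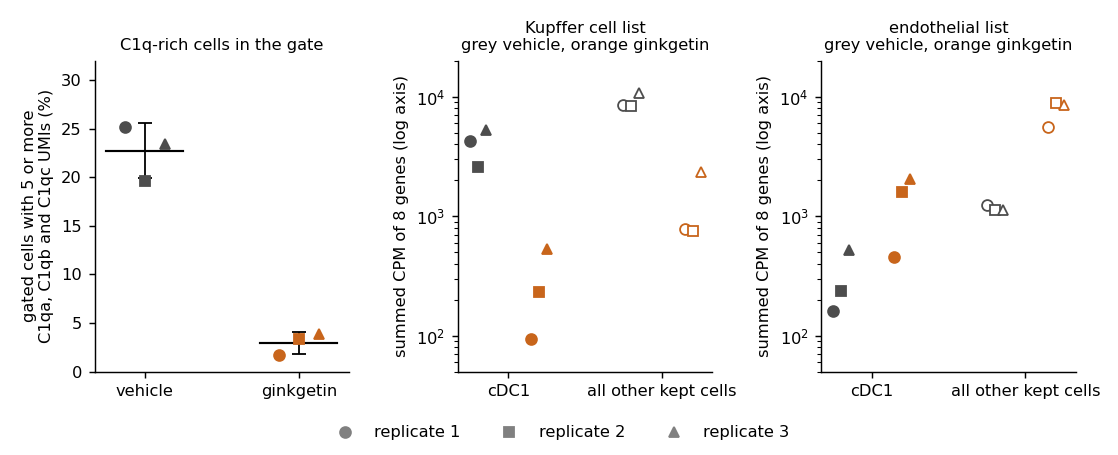
Share of gated cells with 5 or more C1q UMIs (left, percent) and summed CPM on log axes of 8 Kupffer cell genes (middle) and 8 endothelial genes (right) in cDC1 and in all other kept cells, a point per library. The C1q-rich share is 19.7% to 25.2% with vehicle and 1.69% to 3.85% with ginkgetin, and both lists move in cDC1 in the direction in which they move in the other cells.

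In the gene comparison, with UMIs summed over the cDC1 of each library, 7252 genes were tested by edgeR's quasi-likelihood test and called at an adjusted p under 0.05 with a fold over 2. In all, 134 genes passed, or 1.85% of those tested: 20 were higher with ginkgetin (0.276%) and 114 lower (1.57%). Most of the falls were of genes that Kupffer cells carry. In 95 of the 114 (83.3%) the level in Kupffer cells was over 2 times that in vehicle cDC1, which held for 744 of all 7252 genes tested (10.3%) and for none of the 20 that rose. In endothelial cells, 7 of the 20 rises and 34 of the 114 falls were at over 2 times their ginkgetin cDC1 level, as were 2033 of all 7252 genes tested (28.0%). The part of the macrophage RNA in these falls was not tested apart, but values without the 85 C1q-rich cells, an alternative chosen after the data had been seen, are given beside many of the results. Without those cells no gene passed among 6987 (lowest adjusted p = 0.163 by edgeR, with 1059 genes at an unadjusted p under 0.05). All 20 rises kept their sign there with an unadjusted p under 0.05, which 6.81% of genes had as higher and 8.34% as lower. Of the 114 falls, 63 could be tested, 56 kept their sign and 29 had an unadjusted p under 0.05. Both sets of genes had been called in these libraries with most of the same cells. These counts are thus a description and no separate support.

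With the replicate number as a block, 505 genes passed (6.38% of 7915), 205 higher (2.59%) and 300 lower (3.79%), and all 134 were among them. The labels do not say that same-numbered libraries were paired, so values with the block are an alternative to the main test. Block and removal of the C1q-rich cells together left 208 (2.72% of 7651), 107 higher (1.4%) and 101 lower (1.32%), of which 37 were among the 134. The number of genes called in cDC1 cells also rested on single libraries, as it was 36, 64 and 60 without vehicle replicate 1, 2 or 3, and 74 and 21 without ginkgetin replicate 1 or 2, against 135 without ginkgetin replicate 3. It fell to 0 of 6365 when both gate genes had to be counted in a cell (938 genes at an unadjusted p under 0.05 by edgeR).

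Genes that define cDC1 gave no call. None of the 23 tested members of the identity list passed, 6 had an unadjusted p under 0.05, each of them higher (7.24% of all genes), and the median log2 fold change was 0.27, beside 0.02 over all genes tested. Without the C1q-rich cells that median was −0.03, so its sign changed, and 2 were higher and 1 lower at that p. Irf8 was at 1409, 1571 and 1179 CPM in the vehicle libraries and at 1357, 1401 and 1866 CPM in the ginkgetin libraries. Naaa was at 1137, 865 and 714 CPM against 813, 665 and 1152 CPM. Batf3, at 149, 234 and 216 CPM against 232, 225 and 185 CPM, also overlapped between the groups. The log2 fold changes of these 3 genes were 0.15 ± 0.29, −0.06 ± 0.30 and 0.15 ± 0.30 (SE).

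Some members of the same list did separate the groups. Tlr3 was at 99.3, 94.7 and 104 CPM in the vehicle libraries and at 149, 157 and 262 CPM in the ginkgetin libraries, without overlap, and its log2 fold change of 0.92 ± 0.22 missed the threshold (adjusted p = 0.0869 by edgeR). Zbtb46, a transcription factor of conventional dendritic cells, was at 25.9, 21.5 and 36.5 CPM against 43.9, 58.6 and 74.9 CPM. Its log2 fold change was 1.08 ± 0.24 (adjusted p = 0.0671), and it passed with the replicate block (1.06 ± 0.23, adjusted p = 0.0199), as did Cd8a (1.29 ± 0.34, adjusted p = 0.0451). Zbtb46 was at 0.75 ± 0.26 without the C1q-rich cells. It was more abundant in endothelial cells, at a mean of 69.0 CPM in those of vehicle and 114 CPM in those of ginkgetin mice, and the part of their RNA in its difference was not tested. Itgae, which encodes CD103, and Flt3 were also higher in every ginkgetin library, at 100 to 155 CPM against 64.4 to 96.0 CPM for Itgae, with log2 fold changes of 0.61 ± 0.23 and 0.48 ± 0.23 that did not pass. Without the C1q-rich cells the log2 fold changes were smaller, at 0.64 ± 0.22 for Tlr3, 0.30 ± 0.23 for Itgae and 0.18 ± 0.22 for Flt3. Over all genes tested, 6.76% were higher in every ginkgetin library than in any vehicle library and 13.7% were lower. Wdfy4 (0.99 ± 0.33), Id2, a repressor needed by the lineage (−0.12 ± 0.33), the adhesion molecule Cadm1 (−0.08 ± 0.28) and Ifi205 (−0.44 ± 0.30) did not pass either. Over replicates 1 and 2 alone Wdfy4 passed (1.11 ± 0.19, adjusted p = 0.0349 by edgeR). With the block it missed only the fold (0.99 ± 0.20, adjusted p = 0.0160 by edgeR), and it was at 0.70 ± 0.34 without the C1q-rich cells.

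**Figure D4:**
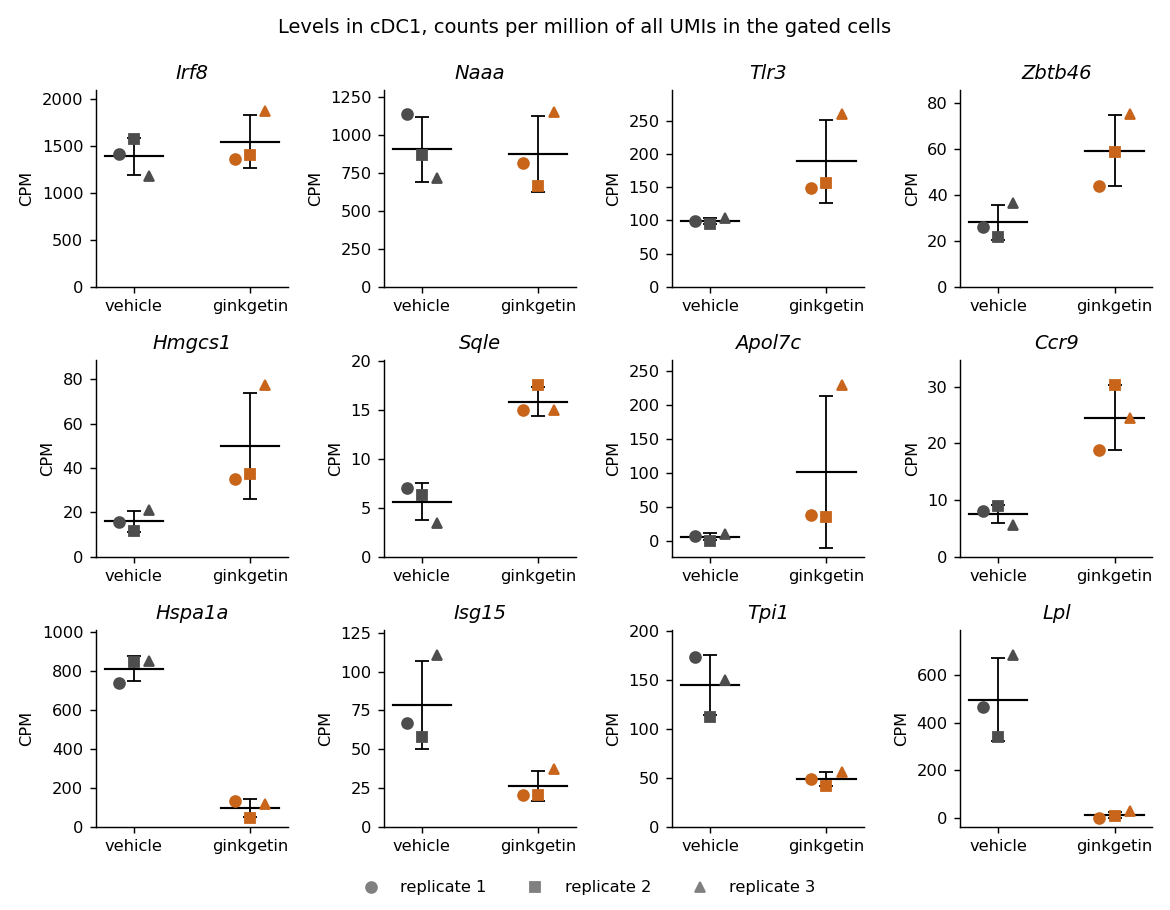
Levels of 12 genes in cDC1 (y axes, CPM), with a point per library, a line at the mean and bars for SD (n = 3). Irf8 and Naaa overlap between vehicle and ginkgetin, Tlr3, Zbtb46, Hmgcs1, Sqle, Apol7c and Ccr9 are higher in all 3 ginkgetin libraries, and Hspa1a, Isg15, Tpi1 and Lpl are lower in all 3.

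Genes of cholesterol synthesis lay higher with ginkgetin. Cells make cholesterol from acetyl-CoA by a chain of enzymes that the transcription factor Srebf2 switches on when membranes are short of sterol. All 13 members of the list tested and reported here had a positive log2 fold change, with a median of 0.91 beside 0.02 for all genes. Over replicates 1 and 2 alone 10 were higher and 2 lower, with a median of 0.98 and no call. Of the 13 members in all libraries, 1 passed the test, Hmgcs1 (0.276% of all genes were called higher), and 8 had an unadjusted p under 0.05, which 7.24% of all genes tested had in this direction. Without the C1q-rich cells the median was 0.79 over 12 members, all of them positive. With the replicate block 4 of 14 passed as higher, beside 2.59% of all genes: Hmgcs1, Sqle, Msmo1 and Insig1.

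Hmgcs1, the synthase that makes HMG-CoA, was at 15.5, 11.4 and 20.8 CPM in vehicle replicates 1 to 3 and at 35.1, 37.1 and 77.3 CPM in ginkgetin replicates 1 to 3. Every ginkgetin library was above every vehicle library, and the log2 fold change was 1.61 ± 0.30 (adjusted p = 0.0335 by edgeR). Squalene epoxidase, Sqle, was at 7.06, 6.31 and 3.47 CPM against 15.1, 17.6 and 15 CPM, and Insig1, which holds the sterol sensor in the endoplasmic reticulum, at 12.2, 16.4 and 18.2 CPM against 25.1, 46.9 and 39.4 CPM. The groups did not overlap in either gene. Hmgcs1 was called in 14 of 25 alternatives and was not called when any library was left out (adjusted p from 0.0540 to 0.153 by edgeR), at log2 fold changes from 1.37 to 1.76.

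The sterol response of these genes is read through short elements in their promoters, so the 250 bases before the start of Hmgcs1 (RefSeq, GRCm38.p6, chr13:119690101-119690350, plus strand) are shown with the match to the sterol regulatory element TCACNCCAC in capitals.
Hmgcs1: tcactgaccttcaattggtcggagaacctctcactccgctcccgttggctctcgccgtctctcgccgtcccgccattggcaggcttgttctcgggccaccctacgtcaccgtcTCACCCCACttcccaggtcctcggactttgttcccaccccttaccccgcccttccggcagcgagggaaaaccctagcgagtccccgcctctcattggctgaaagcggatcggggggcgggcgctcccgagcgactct
The match lay 128 bases before the transcription start. Searched on both strands, these letters occurred in 1.05% of 32851 promoters and in 1 of the 14 promoters found for 12 of the 15 listed genes.

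Interferon-stimulated genes lay mostly lower with ginkgetin. The list holds genes that type I and type II interferon switch on. Of 24 members tested and reported here, 3 passed and fell (Isg15, Irf7 and Rtp4), beside 1.57% of all genes. None passed as higher, 20 had a negative log2 fold change and the median was −0.67. At an unadjusted p under 0.05, 10 were lower, a side on which 10.1% of all genes tested lay, and 1 was higher. Without the C1q-rich cells the median of 18 members was −0.40, with 2 lower and 1 higher at an unadjusted p under 0.05. With the replicate block 8 of 25 passed, 7 of them lower (3.79% of all genes) and 1 higher (2.59%).

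Isg15, a ubiquitin-like protein attached to other proteins after interferon, was at 66.8, 58.1 and 111 CPM in vehicle replicates 1 to 3 and at 20.1, 20.5 and 37.1 CPM in ginkgetin replicates 1 to 3, without overlap. It fell by 1.58 on the log2 scale (SE 0.28, adjusted p = 0.0257 by edgeR), and it passed without the C1q-rich cells when the block was used (−1.44 ± 0.25, adjusted p = 0.0230). Its mean was also lower with ginkgetin in cDC2 (74.9 against 44.7 CPM), Kupffer cells (147 against 60.2 CPM) and endothelial cells (227 against 109 CPM). The difference in its response between cDC1 and cDC2 did not pass (−0.78 ± 0.34). Irf7, the transcription factor that amplifies type I interferon, was at 126, 98.5 and 144 CPM against 42.7, 55.7 and 76.5 CPM (−1.06 ± 0.22, adjusted p = 0.0456 by edgeR), and was not called without the C1q-rich cells (−0.81 ± 0.22). Rtp4, an interferon-induced membrane protein, was at 82.8, 26.5 and 50.8 CPM against 5.02, 6.84 and 11 CPM (−2.78 ± 0.44, adjusted p = 0.0165 by edgeR), but its log2 fold change was −0.19 ± 0.46 with the block and without the C1q-rich cells. Isg15 was called in 15 of 25 alternatives, Irf7 in 7 of them.

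Many of these genes share the interferon-stimulated response element, searched as GAAA, then 2 bases of any kind, then GAAA. Isg15 holds it in 3 overlapping copies, in capitals in the 250 bases before its start (RefSeq, GRCm38.p6, chr4:156200819-156201068, minus strand).
Isg15: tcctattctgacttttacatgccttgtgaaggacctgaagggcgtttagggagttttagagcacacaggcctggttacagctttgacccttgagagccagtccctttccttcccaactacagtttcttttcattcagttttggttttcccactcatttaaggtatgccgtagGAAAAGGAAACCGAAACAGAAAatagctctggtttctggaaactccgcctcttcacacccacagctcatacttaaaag
The nearest copy lay 56 bases before the start. On both strands this pattern was in 2.98% of 32851 promoters and in 11 of the 25 promoters found for 20 of the 26 listed genes.

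The heat shock gene Hspa1a fell steeply. It alone passed of 23 tested members of a list of heat shock and immediate early genes (1.57% of all genes were called lower), of which 13 were higher and 10 lower, with a median of 0.16. With the block 2 of 24 passed as higher (2.59% of all genes) and 4 as lower (3.79%). They were Egr1, Atf3, Ier3, Hspa1a, Hspa1b and Hsp90aa1. Hspa1a, which encodes the inducible Hsp70 chaperone, was at 739, 850 and 853 CPM in the vehicle libraries and at 129, 45.0 and 115 CPM in the ginkgetin libraries. It fell by 3.05 on the log2 scale (SE 0.41, adjusted p = 0.00884 by edgeR), and by 3.33 with the block and without the C1q-rich cells (SE 0.34, adjusted p = 0.00486). Its near-identical neighbour Hspa1b, between which and Hspa1a reads cannot be assigned with certainty, was at 173, 279 and 561 CPM against 114, 45.0 and 148 CPM and passed only with the block (−1.70 ± 0.38, adjusted p = 0.0237). Both genes were lower in every ginkgetin library. Fos, an immediate early gene, was at 260, 588 and 755 CPM against 685, 821 and 1223 CPM and did not pass (0.77 ± 0.38). With the block and without the C1q-rich cells Hsp90aa1, another chaperone, passed as lower as well, and the immediate early genes Fosb and Egr1 as higher. Hspa1a was called when any library was left out and in 23 of the 25 alternatives run.

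The promoter of Hspa1a (RefSeq, GRCm38.p6, chr17:34972157-34972406, minus strand) is shown because heat shock factor acts through the element GAANNTTC, in capitals.
Hspa1a: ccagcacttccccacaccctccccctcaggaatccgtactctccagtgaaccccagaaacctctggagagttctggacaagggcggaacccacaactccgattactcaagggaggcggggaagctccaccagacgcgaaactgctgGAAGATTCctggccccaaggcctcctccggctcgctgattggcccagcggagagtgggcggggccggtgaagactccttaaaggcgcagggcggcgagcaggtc
The element lay 96 bases before the start, and these letters were in 6.69% of all 32851 promoters on either strand. Among the 22 promoters found for 20 of the 24 listed genes, 4 held it, those of Hspa1a, Hspa1b, Hspb1 and Jun.

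In energy metabolism Tpi1 was called. In glycolysis, which splits glucose to pyruvate, 1 of 15 tested genes passed (1.57% of all genes were called lower), 7 were lower at an unadjusted p under 0.05 (10.1% of all genes) and 1 higher (7.24%), and the median was −0.50. Tpi1, triosephosphate isomerase, fell from 173, 112 and 150 CPM to 48.9, 41.1 and 56.0 CPM, by 1.56 on the log2 scale (SE 0.24, adjusted p = 0.0153 by edgeR). It was also called with the block and without the C1q-rich cells (−1.40 ± 0.21, adjusted p = 0.0157), where Hk2, a hexokinase, passed as higher (1.16 ± 0.25, adjusted p = 0.0384). Aldoa and Ldha were lower in every ginkgetin library (−0.93 ± 0.23 and −0.80 ± 0.32) and did not pass. Of 26 respiratory chain genes none passed, 23 were lower and the median was −0.37, which was −0.31 without the C1q-rich cells. With the block Uqcrb, a subunit of complex III, passed as lower (−1.02 ± 0.22, adjusted p = 0.0191).

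Antigen presentation, the main task of cDC1, showed few calls. Of 23 tested genes of MHC class I and cross-presentation 1 passed, Cybb, and of 12 class II genes 1 passed, Ctss, both of them lower (1.57% of all genes), with list medians of −0.19 and −0.32 (−0.19 and −0.31 without the C1q-rich cells, where neither list had a call). Cybb, the NADPH oxidase subunit that limits acidification of the phagosome, was at 146, 97.2 and 270 CPM against 17.6, 34.2 and 71.0 CPM (−2.06 ± 0.42, adjusted p = 0.0454 by edgeR). Ctss, the protease that trims the invariant chain, was at 1428, 1018 and 1081 CPM against 238, 228 and 411 CPM (−2.02 ± 0.29, adjusted p = 0.0106 by edgeR). Without the C1q-rich cells these were −0.37 ± 0.57 and −0.91 ± 0.29, and both genes were more abundant in Kupffer cells than in cDC1. The invariant chain Cd74 overlapped between the groups at 12533, 19441 and 20223 CPM against 15095, 13209 and 20395 CPM. H2-Ab1, a class II chain, was lower in all ginkgetin libraries without passing (−0.44 ± 0.35), and H2-K1 (−0.22 ± 0.30), B2m (−0.87 ± 0.49) and the peptide transporter Tap1 (0.23 ± 0.25) overlapped. With the block Rab43, which takes part in cross-presentation by cDC1, passed as higher, and the class II protease Lgmn as lower.

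Maturation and signalling genes gave single calls. Of 18 tested maturation genes Cd200, a surface glycoprotein that restrains myeloid cells, passed (0.276% of all genes were called higher), and 14 were higher, with a median of 0.27 that was 0.13 without the C1q-rich cells. Over replicates 1 and 2 alone 5 were higher and 10 lower, with a median of −0.20, and Ccl22 was called as lower in place of Cd200. Cd200 rose from 5.65, 2.53 and 3.91 CPM to 16.3, 15.6 and 17.4 CPM (1.95 ± 0.38, adjusted p = 0.0378 by edgeR), and was not called without those cells (1.63 ± 0.38) or in 17 of 25 alternatives. Ccr7 was at 1.88, 5.05 and 40.8 CPM against 0, 16.6 and 141 CPM, with replicate 3 the highest of both groups. It did not pass (1.56 ± 1.18) and with the block it did (1.45 ± 0.40, adjusted p = 0.0495), in 1 of 23 alternatives, and it turned sign without ginkgetin replicate 3 (−0.68). Fscn1, an actin bundler of mature dendritic cells, was at 1.26 to 17.8 CPM against 3.76 to 16.6 CPM and was too low to be tested except with the block (0.34 ± 0.51).

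Among 7 tested chemokine receptors 1 passed in each direction. Ccr9, the receptor for Ccl25, rose from 8.0, 8.84 and 5.64 CPM to 18.8, 30.3 and 24.5 CPM (1.78 ± 0.37, adjusted p = 0.0466 by edgeR). It is also known from pDC, of which 6 genes including Ccr9 summed to 51.3, 61.9 and 80.3 CPM in vehicle cDC1 and 55.2, 113 and 160 CPM in ginkgetin cDC1. It passed with the block and without the C1q-rich cells (1.41 ± 0.33, adjusted p = 0.0432). Cx3cr1, the fractalkine receptor of monocytes, fell from 32.5, 56.8 and 34.3 CPM to 3.76, 1.95 and 13.4 CPM (−2.62 ± 0.52, adjusted p = 0.0438 by edgeR). It was too low to be tested without the C1q-rich cells, and was called in 13 of 21 alternatives.

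Of 16 tested cytokines and chemokines 2 passed, Ccl6 and Ccl9, both of them myeloid chemokines that fell (1.57% of all genes did). Ccl6 was at 333, 211 and 160 CPM against 17.6, 50.8 and 55.2 CPM, and Ccl9 at 215, 157 and 97.2 CPM against 5.02, 15.6 and 27.6 CPM, with log2 fold changes of −2.52 ± 0.41 and −3.28 ± 0.47. Without the C1q-rich cells these were −0.46 ± 0.39 and −0.31 ± 0.69, and the list median went from −0.47 to 0.14. With the block as well Tnf, the inflammatory cytokine, passed as higher (1.45 ± 0.33, adjusted p = 0.0409). Cxcl9, a ligand for Cxcr3 on T cells, was at 111, 30.3 and 555 CPM against 38.9, 18.6 and 199 CPM, lower with ginkgetin within each replicate number. It passed only with the block (−1.31 ± 0.24, adjusted p = 0.0104, against −1.46 ± 0.93 without it). Il12b, a subunit of interleukin 12 through which cDC1 drive type 1 responses, was at 1.88, 30.3 and 10.9 CPM against 12.5, 23.5 and 217 CPM and did not pass (2.63 ± 1.05), nor did Ccl5 (2.06 ± 0.97) or Cxcl16 (−0.33 ± 0.25).

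Of 21 tested genes of lipid handling and the lysosome 8 passed in all gated cells, each of them lower (Lpl, Plin2, Fabp5, Cd63, Ctsa, Ctsb, Ctsd and Abca1), beside 1.57% of all genes. The median was −1.22, and 1 member was higher. Without the C1q-rich cells none of 19 passed and the median was −0.22, whereas with the block as well Lpl and Plin2 passed. Plin2, which coats lipid droplets, was at 253, 181 and 299 CPM against 66.5, 65.5 and 140 CPM. It fell by 1.44 on the log2 scale (SE 0.28, adjusted p = 0.0356 by edgeR), and by 1.18 with the block and without the C1q-rich cells (SE 0.22, adjusted p = 0.0273). Lpl, the lipoprotein lipase of lipid-laden macrophages, was at 465, 340 and 684 CPM against 0, 7.82 and 26.8 CPM (−5.38 ± 0.71), and was at a mean of 1904 CPM in vehicle Kupffer cells. Ctsd, a protease of the lysosome, was at −3.30 ± 0.46 in all gated cells and at 0.13 ± 0.40 without them, and Ctsb at −2.35 ± 0.29 and −0.22 ± 0.26. The fatty acid receptor Cd36 did not pass (−0.55 ± 0.24).

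Of 9 tested receptors for dead cells, Axl, Itgb5, Clec12a and Cd300a passed as lower in all gated cells (1.57% of all genes did), 3 others were higher without passing, and the median was −1.09. None passed in cells with 4 or more other cDC1 markers. That median was 0.11 without the C1q-rich cells, with 4 of 7 higher, Cd300a among them at 0.13. With the block as well Mrc1, the mannose receptor, passed as higher (1.75 ± 0.39, adjusted p = 0.040), and it was at a mean of 980 CPM in vehicle and 1598 CPM in ginkgetin endothelial cells. Clec12a, a receptor for uric acid crystals that cDC1 also carry, was at 282, 249 and 273 CPM against 109, 120 and 145 CPM (−1.09 ± 0.22, adjusted p = 0.0432 by edgeR), and at −0.57 ± 0.23 without them. Axl, which binds phosphatidylserine through Gas6, was at 88.9, 73.2 and 120 CPM against 13.8, 15.6 and 49.7 CPM (−1.84 ± 0.36), and at −0.14 ± 0.46 without them.

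**Figure D5:**
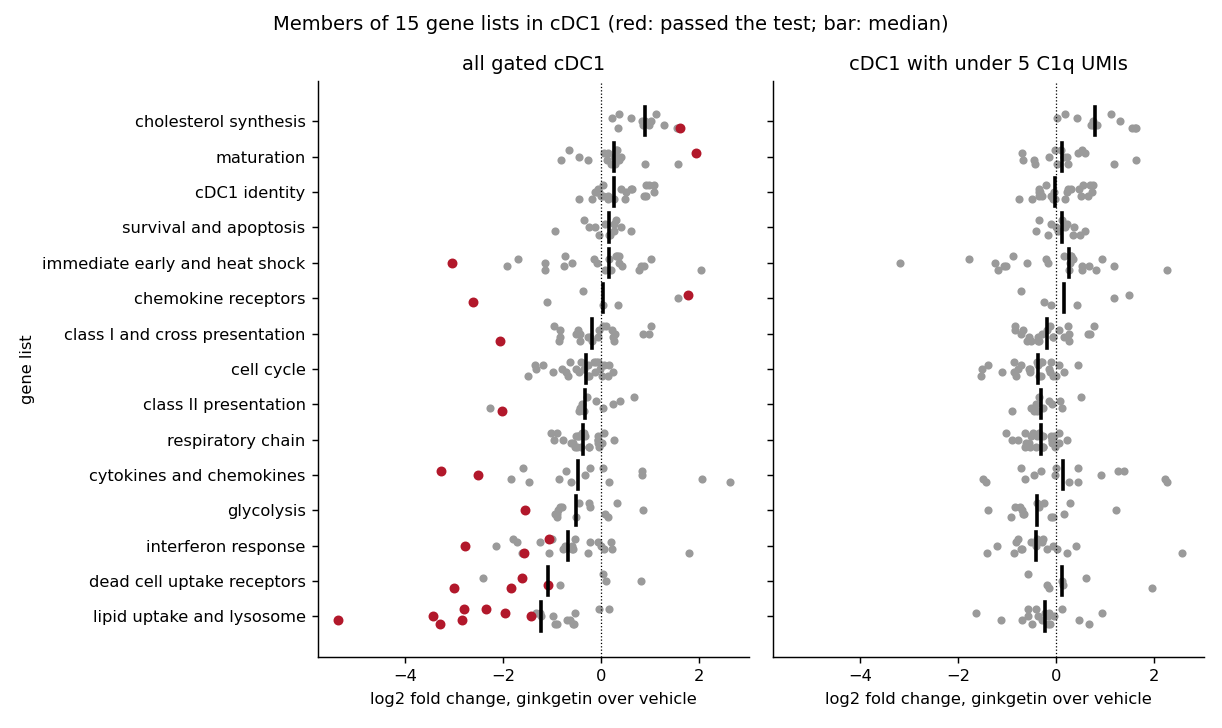
Log2 fold change, ginkgetin over vehicle (x axes), of each tested member of 15 gene lists (rows), in all gated cDC1 (left) and in those with under 5 C1q UMIs (right), with red points for genes that passed and black bars for list medians. The cholesterol synthesis median is 0.91 in the left panel and 0.79 in the right, while the lipid and lysosome median goes from −1.22 to −0.22.

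Among genes at a mean of 50 CPM or more in a group, further rises lay outside these lists. Apol7c, an apolipoprotein L tied in cDC1 to the release of cargo from phagosomes, was at 6.12, 0 and 10.4 CPM in the vehicle libraries and at 37.6, 34.2 and 230 CPM in the ginkgetin libraries. It rose by 3.88 ± 0.79 on the log2 scale (adjusted p = 0.0451 by edgeR), and by 3.76 ± 0.44 with the block and without the C1q-rich cells (adjusted p = 0.00636). Replicate 3 was the highest of each group. Adam19, a membrane metalloprotease, went from 24, 26.5 and 30.4 CPM to 64.0, 66.5 and 86.0 CPM (1.44 ± 0.22, adjusted p = 0.0144 by edgeR). Nedd4, a ubiquitin ligase, went from 8.94, 15.2 and 21.7 CPM to 36.4, 40.1 and 77.3 CPM (1.75 ± 0.35), though it is abundant in endothelial cells, at a mean of 427 CPM in those of vehicle mice. The long noncoding RNA 4930523C07Rik (17.4, 24 and 22.1 CPM against 50.2, 60.6 and 63.9 CPM), the transporter Slco3a1 (1.31 ± 0.22) and Fryl (1.19 ± 0.25) also passed. Next by p-value came Aff1, Rab43 and Myadm, which did not pass (adjusted p = 0.0637 for each by edgeR) but did with the block, with log2 fold changes of 1.27 ± 0.25, 1.01 ± 0.20 and 1.03 ± 0.21.

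The largest falls among genes at such a mean included Lpl, given above. Ms4a7 (67.8, 45.5 and 85.1 CPM against 0, 1.95 and 0 CPM), Nr1h3, the liver X receptor (63.1, 51.8 and 87.3 CPM against 2.51, 2.93 and 3.16 CPM) and Capg, an actin-capping protein (131, 104 and 155 CPM against 5.02, 6.84 and 5.52 CPM), had log2 fold changes of −6.49 ± 0.64, −4.50 ± 0.33 and −4.46 ± 0.28. The others were the Fc receptors Fcgr1 and Fcgr4, the folate receptor Folr2, Fabp7, Cd14 and Il18bp, between −3.64 and −4.45. All of these were too low to be tested without the C1q-rich cells, Lpl except with the block, and each was at a higher mean in vehicle Kupffer cells than in vehicle cDC1.

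cDC2 of the same libraries were compared with cDC1 to see what was particular to the latter. In cDC2 alone 2 of 4513 genes passed (0.0443%), and 44 of 5106 with the block (0.862%). Counts of calls in the 2 cell types do not test a difference, so the difference in response was fitted in a model with a term for each library. There 89 of 8014 genes passed (1.11%), 11 with a higher response in cDC1 (0.137%) and 78 with a lower one (0.973%). The count was 15 without the C1q-rich cells, 50 without vehicle replicate 3 and 55 without ginkgetin replicate 2.

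In cholesterol synthesis no difference between the 2 cell types passed. All 8 members tested in cDC2 were positive with a median log2 fold change of 1.15, none of them called, and over 13 members the median difference was 0.012. For Hmgcs1 the difference was 0.06 ± 0.32 and for Hspa1a 0.61 ± 0.29. In cDC2 Hmgcs1 was at 21.5, 14.6 and 29.1 CPM against 77.7, 51.8 and 80.8 CPM, again without overlap, and Hspa1a at 1368, 1022 and 799.6 CPM against 169, 36.0 and 68.7 CPM.

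Of the cell-cycle genes, 5 of 26 had a lower response in cDC1, beside 0.973% of all genes. In cDC1 none of 26 passed, 21 were lower and the median was −0.31, but over replicates 1 and 2 alone 13 were higher and 13 lower. With the block Tk1, a thymidine kinase, passed as lower (−1.39 ± 0.34, adjusted p = 0.0308). In cDC2 none of 17 passed, 15 were higher and the median was 0.48. In the model of the difference all 26 were lower in cDC1, with a median of −0.97 beside 0.02 for all genes, and 5 passed: Stmn1, Hmgb2, Birc5, Cdk1 and Ccnb1, whose products act on microtubules, chromatin and mitosis. Hmgb2 was at 779, 561 and 878 CPM against 555, 495 and 285 CPM in cDC1 and at 448, 234 and 280 CPM against 439, 401 and 366 CPM in cDC2, a difference of −1.09 ± 0.21 (adjusted p = 0.0138 by edgeR). Replicate 3 of the ginkgetin group had the lowest value in cDC1 for each of the 5 genes, and without it Stmn1 and Hmgb2 did not pass (−0.94 and −0.85). Of 21 alternatives Birc5 was called in 17, Hmgb2 in 14, Cdk1 in 13 and Stmn1 in 11, and Ccnb1 in 12 of 20. Mki67, at 55.5, 54.3 and 117 CPM against 94.1, 101 and 39.4 CPM in cDC1, and Top2a, at 123, 101 and 111 CPM against 177, 171 and 11 CPM, were higher with ginkgetin in replicates 1 and 2 and lower in replicate 3, and neither passed in any of these fits.

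Among the genes with a higher response in cDC1 than in cDC2 were Gpr171, Ltb, Tnfsf9, Avpi1 and Ifitm1. Gpr171, a receptor for a neuropeptide, was at 44.2, 92.2 and 70.3 CPM against 177, 112 and 139 CPM in cDC1 and at 43.6, 21.9 and 19.7 CPM against 20.3, 13.5 and 14.1 CPM in cDC2 (difference 2.14 ± 0.51, adjusted p = 0.0497 by edgeR). Of 21 alternatives the difference was called in 7 for Gpr171, 8 for Tnfsf9, 14 for Ltb, 17 for Ifitm1 and 19 for Avpi1. In Gpr171 the vehicle and ginkgetin libraries did not overlap in cDC1. Tnfsf9, a costimulatory ligand, was at means of 15.5 and 15.4 CPM in cDC1 and of 138 and 46.6 CPM in cDC2, so its difference lay in cDC2. Ifitm1, an interferon-induced membrane protein, also turned on cDC2, where it went from 148, 136 and 138 CPM to 6.76, 15.8 and 12.1 CPM, against 8.0, 17.7 and 9.98 CPM and 2.51, 9.77 and 16.6 CPM in cDC1 (difference 3.57 ± 0.52, adjusted p = 0.000961 by edgeR).

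Those with a lower response in cDC1 included Mmp12, Capg, Ear2, Fcgr3 and Plaur. In vehicle libraries these were at a higher mean in Kupffer cells than in cDC1, but Plaur was highest in pDC, at 183 CPM against 39.1 CPM in Kupffer cells. Mmp12, the macrophage elastase, was at 73.4, 66.9 and 543 CPM against 0, 16.6 and 0.789 CPM in cDC1 and at 19.3, 2.43 and 20.5 CPM against 13.5, 49.5 and 36.4 CPM in cDC2 (difference −6.18 ± 0.84, adjusted p = 0.000482 by edgeR). The summed Kupffer list in cDC2 was 857, 231 and 522 CPM with vehicle and 47.3, 354 and 117 CPM with ginkgetin, so its vehicle level was lower in cDC2 than in cDC1 of each library.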

How the data were processed

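Raw UMI counts per gene and cell barcode, deposited by the authors without normalization, were used for all 6 libraries. Per the labels' processing notes the builds were GRCm38 and mm10, and the aligner is not given in the sources used here. Every deposited barcode had at least 501 genes. The stated range of 250 to 5000 was applied as an upper limit on genes, since applied to UMIs it left at most 5 gated cells in a library. Doublets were not removed. The members, gene lists and named genes were chosen with earlier results of these data known, so lists are described by counts and medians without a test of their own. Named genes were fixed ones (29 reported), the 10 largest calls in each direction with a mean of 50 CPM or more that did not overlap between groups and were in no list of other cell types (filled by p-value), and 5 in each direction for the difference. List members that passed are named as well. Some genes of the lists and of this rule are not reported here, and list counts and medians leave them out.

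Counts were summed over the gated cells of each library with at least 10 cells and tested for the effect of group with edgeR 4.0.16 under R 4.3.3 (quasi-likelihood F test, libraries scaled by TMM, low genes dropped by filterByExpr, gate genes left out, Benjamini-Hochberg adjustment). The difference between cDC1 and cDC2 was fitted with library, cell type and their interaction with group. limma-voom (3.58.1) and DESeq2 (1.42.0) were alternatives. Replicate numbers were checked for pairing: deviations of same-numbered libraries from their group means correlated at 0.359, 0.197 and 0.589 over 7252 genes, against −0.473 to 0.188 for other numbers. This check cannot establish pairing by number. Deviations within a group cancel out, which pushes values across numbers down. Vehicle replicate 2 was also nearly as close to ginkgetin replicate 1 (0.188) as to ginkgetin replicate 2 (0.197). Values with the number as a block are given as alternatives where they change a call. Tested on simulated counts for 7252 genes, the cDC1 test recovered 93% of 100 genes changed 4-fold and 99% of 100 changed 8-fold, with 10 false calls. The changed genes were drawn from those at a mean of 50 CPM or more, and no replicate effect was simulated. Recovery of less abundant genes or of smaller changes was not measured. Shares were compared by exact permutation tests over libraries in scipy 1.17.1 with pandas 2.3.3 and numpy 2.4.6 (Python 3.11.15), and figures drawn with matplotlib 3.10.9. Kupffer and endothelial cells used for levels were gated on 3 or more UMIs of their markers.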

Additional observations from a re-analysis of the deposited data

Results flagged for a closer look

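The response to ginkgetin differed between cDC1 and cDC2, by the interaction term of the edgeR model, for 89 genes, and these results were picked out because that difference itself passed the test. Among the named genes the difference in log2 fold change, cDC1 minus cDC2, was 3.57 for Ifitm1, 2.44 for Ltb, 2.14 for Gpr171, 1.65 for Tnfsf9 and 1.49 for Avpi1. It was negative for Mmp12 (−6.18), Capg (−4.66), Ear2 (−4.38), Fcgr3 (−3.90), Plaur (−3.52), Fcgr4 (−3.48), Cd14 (−3.37) and Fcgr1 (−2.95).

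Members of the gene lists with a lower response in cDC1 included the cell-cycle genes Ccnb1 (−3.76), Birc5 (−2.08), Cdk1 (−2.04), Stmn1 (−1.47) and Hmgb2 (−1.09). The uptake receptors Lrp1 (−3.07) and Clec12a (−1.32), the chemokines Ccl6 (−2.65) and Ccl9 (−2.45) and the interferon-stimulated genes Gbp3 (−2.23) and Rtp4 (−1.78) were also among them. So were the oxidase subunit Cybb (−2.03), the proteases Ctsb (−1.67), Ctss (−1.37) and Ctsa (−1.05) and the stress-induced factor Atf3 (−1.29). The C1q-rich cells made up 19.7% to 25.2% of vehicle and 1.69% to 3.85% of ginkgetin cDC1, and without them 15 genes passed. There the differences of Ccl9 (0.36), Rtp4 (0.68), Ctsa (0.51) and Ctsb (0.035) were positive. Of the alternatives run, Ctsa was called in 5 of 21, Rtp4 in 8 of 21 and Gbp3 in 6 of 20.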

How the results depend on the processing

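The cDC1 calls (134) were 505 with the replicate block, 454 with the barcode-set block, 658 with a gate of 1 UMI, 54 with 3 UMIs, 0 with both gate genes, 256 without a gene filter, 84 by limma-voom, 80 with 4 or more other markers (283 with the block), 0 with under 5 C1q UMIs (208 with the block), and 16 or 15 with doublet genes out, with or without S100a8 among them (ginkgetin replicate 2 then had too few cells and dropped out). Without 1 library they ranged from 21 to 135. DESeq2 gave 172 and sums thinned to equal depth 104. The calls for the difference (89) were 27, 39, 41, 295, 55, 55, 175, 12 and 15 with both gate genes, doublet genes out, the same except S100a8, a gate of 1 UMI or 3 UMIs, thinned sums, no gene filter, no library block and under 5 C1q UMIs, and 50 to 98 without 1 library.

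The difference in the cDC1 share of kept cells (−0.727) was 0.0143 with the range applied to UMIs, −1.94 at 1 UMI and −0.078 thinned, and −1.03 to −0.397 without 1 library. That among cDC (10.2) was 6.09 at 1 UMI and −0.990 with the range applied to UMIs (0 to 5 cDC1 a library). With doublet genes out, then keeping S100a8 cells, it was 4.20 and 5.16, that in the cycling share of cDC1 cells −3.59 and −3.53, and that in the Ccr7 share of cDC1 cells 9.60 and 6.84, where ginkgetin replicate 2 had 3 and 4 cDC1.

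Log2 fold changes of genes not called that turned sign were Naaa 0.029 and 0.010, Cadm1 0.15 and 0.12, Cxcl16 0.051 and 0.038, Cd74 0.057 and 0.056, H2-K1 0.21 and 0.18, Mki67 −0.56 and −0.57 and Top2a −0.74 and −0.81 (doublet genes out, then keeping S100a8). Top2a was −0.33 and −0.34 with the replicate and barcode-set blocks, and −0.76 by limma-voom, where Mki67 was −0.00013. Both gate genes gave Cadm1 0.062, Cxcl16 0.021 and Mki67 −0.15, 3 UMIs Cadm1 0.059 and Mki67 −0.065, and 1 UMI Naaa 0.24. With 4 other markers and the block Cadm1 was 0.00046, Mki67 −0.016 and Top2a −0.34. Under 5 C1q UMIs, Irf8 was −0.11, Batf3 −0.030 and Mki67 −0.062, and, of called genes, Cd63 0.48, Ctsd 0.13 and Cd300a 0.13, and the differences of Ccl9 0.36, Rtp4 0.68, Ctsa 0.51 and Ctsb 0.035. With the block as well these were Irf8 −0.11, Batf3 −0.070, Mki67 −0.12, Top2a −0.36, Cd63 0.26, Ctsd 0.037 and Cd300a 0.14. The cause was not tested. Without 1 library Irf8 ranged from −0.022 to 0.31, Naaa from −0.26 to 0.16, Batf3 from −0.044 to 0.40, Id2 from −0.35 to 0.10, Cadm1 from −0.31 to 0.057, Cxcl9 from −2.73 to 0.087, Cd74 from −0.26 to 0.069, Mki67 from −0.12 to 0.59, Top2a from −0.26 to 0.85 and Ccr7 from −0.68 to 3.96. The range applied to UMIs left too few cells for a gene test. The alternatives on C1q, other markers and S100a8 were chosen after seeing the data.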
